A study of Mus musculus with 6 samples.

Results

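The genes described are 10 carbohydrate sulfotransferases, Chst1, Chst2, Chst3, Chst7, Chst8, Chst10, Chst11, Chst12, Chst14 and Chst15. They were measured in mouse embryos, in tissue that the sample titles call dorsal cortex. They were taken by gene symbol from the authors' deposited comparison table, in which 12 probes carry 1 of these symbols in the array annotation or the updated gene annotation. The brighter Chst2 probe, the dimmer Chst15 probe and the probes of Chst1 and Chst14 carry it in the array annotation only. They stand among 22204 named genes and 39429 probes of the array. Chst2 was picked because its signal was lower in the mutants, so its difference is given as a description. Chst2 was part of the fit across all genes, and nothing is read from its passing or missing the threshold. The other 9 genes were listed as members of the family.

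The 6 samples were 3 mutant and 3 control embryos at E11.5, a stage of early cortical neurogenesis, each hybridised to its own 1-colour array. Mutant 1 and control 1 came from litter 1, mutant 2 and control 2 from litter 2, and mutant 3 and control 3 from litter 3. The series title places the work within Wnt/beta-catenin signalling in cortical precursor cells. The mutated gene, its allele, what drives any recombination, the genotype of the controls and the strain are not given in the sources used here.

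These enzymes sit in the Golgi apparatus and move sulfate from the donor PAPS (3'-phosphoadenosine 5'-phosphosulfate) onto sugars of glycoproteins and proteoglycans. The position of the sulfate on chondroitin, dermatan and keratan chains and on N-linked glycans sets which growth factors, adhesion molecules and lectins bind them. In the embryonic brain, chondroitin sulfate proteoglycans surround neural progenitors and growing axons, and the HNK-1 sugar epitope is carried by neural adhesion molecules.

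Levels are log2 processed signals minus the log2 of their own array's 75th percentile, so a value of 0 lies at that percentile. Differences are mutant minus control on this log2 scale. Levels are compared within a probe only. Spots well above background made up 65.75% to 67.9% of the mutant arrays and 68.68% to 70.1% of the control arrays, and the 75th percentile of the signal was 1206.9 to 1380.2 in mutants and 1446.2 to 1833.2 in controls. All 12 probes were well above background on all 6 arrays, and none of their spots, nor any other spot, was saturated. The number of arrays limits the precision of every value.

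Defining markers of the pallium were well above background in all 6 embryos. Emx2, a transcription factor of the pallium, was at 0.62, 0.61 and 0.39 in mutants 1 to 3 and at 1.38, 1.44 and 1.57 in controls 1 to 3, with every mutant below every control (log2 difference -0.92, SE 0.10, limma, adjusted p = 0.0673). Lhx2, a selector gene of the cortex, had a difference of -0.58 (adjusted p = 0.104). The list of 11 pallial progenitor markers did not move as a whole. Its median difference was 0.17, with 3 genes lower and 4 higher at an unadjusted p under 0.05 in limma. Fabp7 and Slc1a3 of that list had differences of 1.39 and 0.99 (limma, adjusted p = 0.0548 and 0.137). Some embryos stood apart in markers of neighbouring tissue. The median of 9 measured subpallial markers, relative to the control mean, was 1.41, 0.86 and 2.01 in mutants 1 to 3 and 1.14, 0.86 and -2.05 in controls 1 to 3, so that control 3 was lowest. The median of 10 markers of the meninges and head mesenchyme was 1.04, -0.25 and -0.72 in mutants 1 to 3, against 0.14, 0.00 and -0.19 in controls 1 to 3. The median of 7 measured markers of the choroid plexus and cortical hem was 2.12 and 2.57 in mutants 1 and 2 but -0.40 in mutant 3, against -0.24, -0.25 and 0.29 in the controls. Ttr, Wnt3a and Wnt2b of that list and Nkx2-1 of the subpallial list were not among the rows tested.

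**Figure D1:**
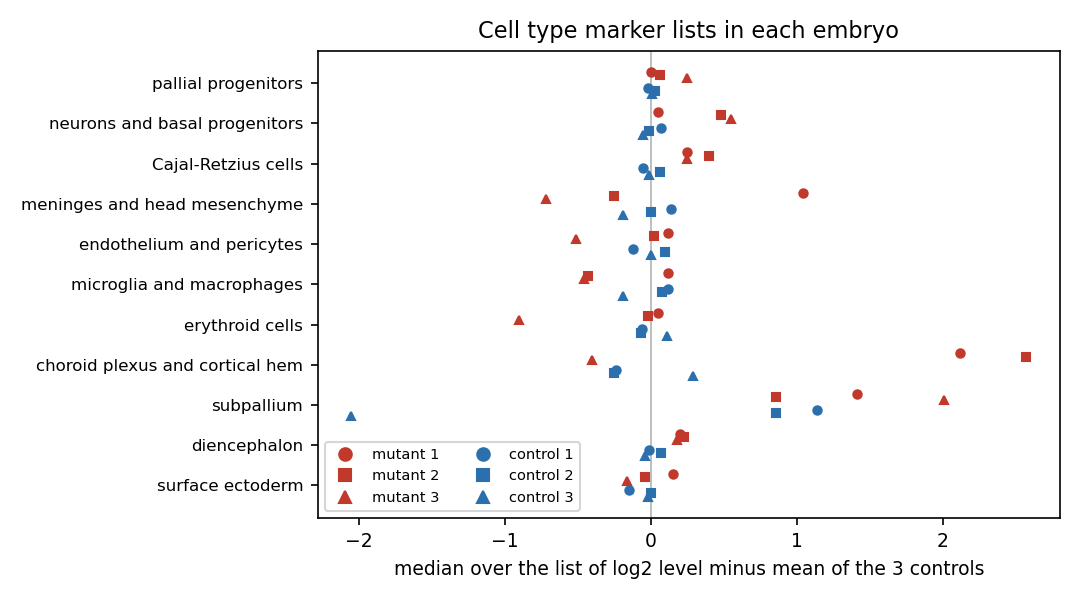
For 11 lists of cell type markers, the x axis gives the median over the list of the log2 level minus the mean of the 3 controls, with red symbols for mutants (upper) and blue symbols for controls (lower), shaped by litter. Control 3 lies at -2.05 for the subpallium, mutant 1 at 1.04 for the meninges, and mutant 3 apart from mutants 1 and 2 for the choroid plexus and hem.

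Chst2 encodes an N-acetylglucosamine sulfotransferase that adds sulfate at the sixth carbon. It takes part in the synthesis of keratan sulfate in the mouse brain and of the sulfated ligands of L-selectin in lymph nodes. Its brighter probe was at -0.98, -1.06 and -1.32 in mutants 1 to 3, against 0.37, 0.57 and 0.59 in controls 1 to 3. The highest mutant thus lay below the lowest control, and the gap between the groups was wider than the range within either group (0.34 in mutants and 0.22 in controls). The mean was -1.12 ± 0.18 in mutants and 0.51 ± 0.12 in controls (SD, n = 3 each), a log2 difference of -1.63, or a mutant signal at 32.3% of that of controls. In whole dorsal cortex tissue, fewer cells of a type that makes the transcript and less transcript per cell cannot be told apart.

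A second, dimmer probe of Chst2 lay on the same side. It was at -4.24, -4.49 and -4.70 in mutants 1 to 3 and at -2.74, -2.57 and -2.25 in controls 1 to 3. Its log2 difference of -1.96 depended on the processing. It was -1.08 with normexp background correction and its added offset of 50, which together change signals near background most. In the authors' deposited table the log2 ratios of the brighter and dimmer probes are -1.60 and -1.61. Both probes target the transcript NM_018763 on the minus strand of chromosome 9 in mm9, the brighter one at chr9:95304932-95304991 and the dimmer one at chr9:95301935-95301994, with starts 2997 bases apart. They were hybridised with the same 6 RNA samples and are not independent samples.

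Within litters the Chst2 difference was -1.35, -1.63 and -1.91 for litters 1, 2 and 3. Litter 1 was also the only pair on slide 1, and within slide 2, which held the other 4 arrays, the difference was -1.77. With any single embryo left out the difference lay between -1.70 and -1.53, including the settings without control 3 (-1.59), without mutant 1 (-1.70) and without mutant 3 (-1.53). Among all 21091 rows tested, which are 1 probe per gene plus unnamed probes, 31 had a difference at least as low as that of Chst2.

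**Figure D2:**
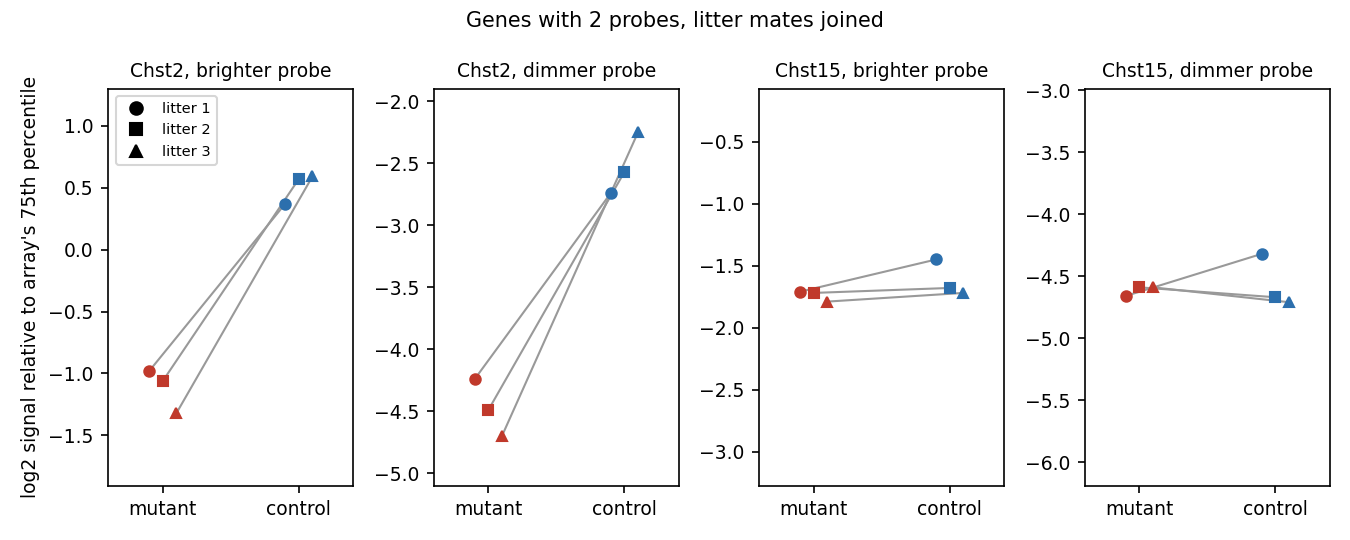
The y axis gives the log2 signal relative to the array's 75th percentile for both probes of Chst2 and both probes of Chst15, with mutants on the left, controls on the right and litter mates joined. Each panel spans the same number of log2 units. In both Chst2 probes each mutant lies below its litter mate (log2 differences from -2.44 to -1.35), whereas in Chst15 the litter mates of litters 2 and 3 lie close together.

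In some marker lists the summed signal did not overlap between the groups, although 0 of their genes passed in limma. Single rows did not overlap in 24.9% of all rows, and a sum follows its brightest markers. The summed signal of 12 of 12 markers of neurons and basal progenitors, in units of each array's 75th percentile, ranged from 112 to 161 in mutants and from 104 to 107 in controls. That list's median per embryo overlapped (0.05 in mutant 1 and 0.07 in control 1). The sum of 8 of 8 markers of Cajal-Retzius cells ranged from 5.11 to 6.32 in mutants and from 4.51 to 5.06 in controls. For 7 of 8 diencephalic markers (all but Foxb1) it ranged from 1.61 to 1.70 in mutants and from 1.31 to 1.36 in controls. The median difference of these 7 was 0.25, which was that of Lhx9, the brightest, while Gbx2 went the other way (-0.62, limma, adjusted p = 0.234). For 7 of 7 markers of surface ectoderm the sum ranged from 2.95 to 3.43 in mutants and from 2.83 to 2.88 in controls, but the list did not move as a whole. Its median difference was -0.09, its median per embryo overlapped between the groups (0.15, -0.04 and -0.16 in mutants 1 to 3 and -0.15, 0.00 and -0.02 in controls 1 to 3), and most of the sum came from Trp63 (log2 difference 0.20, adjusted p = 0.255). The part of these lists in the Chst2 difference was not tested.

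The start region of Chst2 is shown because Chst2 was the member picked from a study of Wnt signalling, whose nuclear effectors of the TCF/LEF family bind DNA at sites built on the letters CTTTG. The window covers 250 bases before to 50 bases after the annotated start (RefSeq, GRCm38.p6, chr9:95407221-95407520, minus strand), with capitals marking GGGCGG, the GC box recognised by Sp-family zinc-finger factors. The window of Chst3 (GRCm38.p6, chr10:60219211-60219510, minus strand) is set beside it with capitals marking CTTTG or its reverse complement CAAAG.
Chst2: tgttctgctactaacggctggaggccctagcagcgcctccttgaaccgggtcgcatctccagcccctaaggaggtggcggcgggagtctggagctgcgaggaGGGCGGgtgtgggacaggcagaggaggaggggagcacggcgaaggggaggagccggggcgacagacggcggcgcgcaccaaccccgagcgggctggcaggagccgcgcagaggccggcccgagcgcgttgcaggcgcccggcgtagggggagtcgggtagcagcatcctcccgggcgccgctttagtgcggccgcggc
Chst3: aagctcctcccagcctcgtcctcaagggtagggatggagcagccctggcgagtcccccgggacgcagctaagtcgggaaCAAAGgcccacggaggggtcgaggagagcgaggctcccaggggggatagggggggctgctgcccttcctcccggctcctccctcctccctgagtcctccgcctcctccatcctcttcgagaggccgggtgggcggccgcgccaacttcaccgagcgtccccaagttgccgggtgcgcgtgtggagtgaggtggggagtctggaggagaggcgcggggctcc

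Searched on both strands, CTTTG was found in the windows of 2 of the 10 genes, Chst3 and Chst10, and not in that of Chst2. Of all 32851 such windows in the table, 53.9% hold it. The letters GGGCGG were found in windows of 8 of the 10 genes, all but Chst1 and Chst10, and in 35.7% of all windows. The window of Chst2 has a G and C content of 73.0% and holds GGGCGG at 1 place. A match is a description of these letters, and the absence of one says only that they are not in this window.

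In the test over all 21091 rows (limma, adjusted p under 0.05), 7 genes passed, a share of 0.0332%, with 5 lower (0.0237%) and 2 higher (0.00948%) in the mutants. Of the 10 sulfotransferases 1 passed, which was Chst2, and nothing is read from that count because Chst2 was picked for it. With litter as a block, 0 of the 10 and 0 of all rows passed in limma, with 1 of the 10 and 4185 rows at an unadjusted p under 0.05. Of the other 9 genes 0 passed in limma (adjusted p from 0.427 to 0.936), and 0 reached p under 0.05 before adjustment, which 16.9% of all rows did. In the same 9 genes the groups overlapped, whereas they did not overlap in 24.9% of all rows. The 9 differences ranged from -0.28 to 0.27, with 5 below and 4 above 0 and a median of -0.02, beside a median of 0.02 over all rows. Their 95% intervals reached from -0.75 at the lowest to 0.68 at the highest, so that mutant signals between 59.6% and 160.0% of control were compatible with 1 or more of them.

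**Figure D3:**
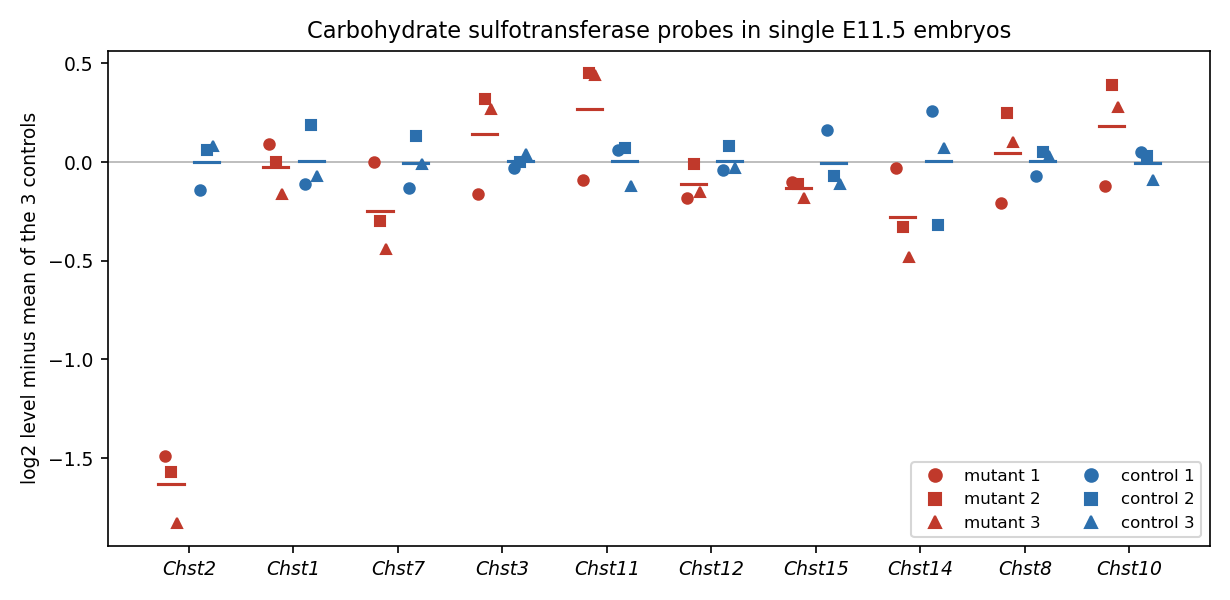
The y axis gives each embryo's log2 level minus the mean of the 3 controls for the 10 genes along the x axis, with mutants (red) left of controls (blue), symbols by litter and bars at the group means. Only for Chst2, the gene picked for its difference, do the 2 groups lie apart. In Chst3, Chst8, Chst10, Chst11 and Chst12 mutant 1 lies below mutants 2 and 3.

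Chst1 and Chst7, like Chst2, place sulfate at the sixth carbon of a sugar. Chst1 acts on galactose in keratan sulfate. It was at 1.35, 1.26 and 1.10 in mutants 1 to 3, against 1.15, 1.45 and 1.19 in controls 1 to 3. The groups overlapped and the difference of -0.02 (SE 0.11, 95% interval -0.31 to 0.26) did not pass (limma, adjusted p = 0.936). Chst7 acts on N-acetylglucosamine and on chondroitin. It was at -2.06, -2.36 and -2.50 in mutants 1 to 3 and at -2.19, -1.93 and -2.07 in controls 1 to 3. Mutants 2 and 3 lay below all controls, while mutant 1 lay above its litter mate, with within-litter differences of 0.13, -0.43 and -0.43. The difference of -0.24 (SE 0.14, 95% interval -0.59 to 0.10) did not pass (limma, adjusted p = 0.427), nor did that of -0.37 without mutant 1 (adjusted p = 0.184). The Chst1 probe (NM_023850) lies at chr2:92455254-92455313 and that of Chst7 (NM_021715) at chrX:19674422-19674481 in mm9.

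Chst3 is the main chondroitin sulfotransferase acting at the sixth carbon. It was at 0.28, 0.76 and 0.71 in mutants 1 to 3, against 0.41, 0.44 and 0.48 in controls 1 to 3. The controls lay within 0.07 of each other, and the mutants fell on both sides of them. The difference was 0.14 (SE 0.14, 95% interval -0.21 to 0.49, limma, adjusted p = 0.649). Leaving mutant 1 out gave 0.29 (adjusted p = 0.143). The probe (NM_016803) lies at chr10:59644506-59644565 in mm9.

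Chst11, Chst12 and Chst14 place sulfate at the fourth carbon of N-acetylgalactosamine, the first 2 on chondroitin and Chst14 on dermatan. Chst11 was at -2.42, -1.88 and -1.89 in mutants 1 to 3, against -2.27, -2.26 and -2.45 in controls 1 to 3. Again mutants 2 and 3 lay above all controls and mutant 1 within their range. The difference of 0.27 (SE 0.17, 95% interval -0.15 to 0.68) did not pass (limma, adjusted p = 0.465). Leaving mutant 1 out gave 0.44 (adjusted p = 0.12), the lowest adjusted p that any of the 9 genes had in any of the alternatives run.

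Chst12 varied least between litters. It was at -2.05, -1.88 and -2.02 in mutants 1 to 3, against -1.91, -1.79 and -1.90 in controls 1 to 3, and each mutant was below its litter mate (-0.13, -0.08 and -0.12). The group difference of -0.11 (SE 0.08, 95% interval -0.31 to 0.09) did not pass (limma, adjusted p = 0.513). Chst14 spread more, with -0.47, -0.77 and -0.92 in mutants 1 to 3 and -0.18, -0.76 and -0.37 in controls 1 to 3. Control 2 lay among the mutants, and the within-litter differences were -0.29, -0.01 and -0.54. The group difference of -0.28 (SE 0.19, 95% interval -0.75 to 0.19) did not pass (limma, adjusted p = 0.492). In mm9 the probes lie at chr10:82658397-82658456 (Chst11, NM_021439), chr5:141001089-141001148 (Chst12, NM_021528) and chr2:118754205-118754264 (Chst14, NM_028117).

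Chst15 adds a further sulfate, at the sixth carbon, to chondroitin already sulfated at the fourth, which gives the highly sulfated E type. It was at -1.71, -1.72 and -1.79 in mutants 1 to 3, against -1.45, -1.68 and -1.72 in controls 1 to 3. Control 1 was the highest embryo and the other 5 lay close together. The difference was -0.12 (SE 0.09, 95% interval -0.36 to 0.11, limma, adjusted p = 0.536). Its dimmer probe was at -4.66, -4.59 and -4.59 in mutants 1 to 3 and at -4.32, -4.67 and -4.71 in controls 1 to 3, again with control 1 highest. The dimmer probe's difference of -0.04 turned to 0.10 with normexp background correction. Both probes target NM_029935, at chr7:139427955-139428014 (brighter) and chr7:139428699-139428758 (dimmer) in mm9.

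Chst8 and Chst10 act outside the glycosaminoglycans. Chst8 sulfates N-acetylgalactosamine on N-linked glycans such as those of pituitary hormones. It was at 0.21, 0.67 and 0.52 in mutants 1 to 3, against 0.35, 0.47 and 0.45 in controls 1 to 3, with a difference of 0.05 (SE 0.13, 95% interval -0.28 to 0.37, limma, adjusted p = 0.883). That difference was -0.04 with median centring, so that it has no settled sign. Chst10 is the sulfotransferase that completes the HNK-1 epitope. It was at -0.45, 0.06 and -0.05 in mutants 1 to 3, against -0.28, -0.30 and -0.42 in controls 1 to 3. Mutants 2 and 3 lay above all controls and mutant 1 below them. The difference was 0.18 (SE 0.15, 95% interval -0.17 to 0.54, limma, adjusted p = 0.555), and 0.34 without mutant 1 (adjusted p = 0.155). The probes lie at chr7:35459936-35459995 (Chst8, NM_175140) and chr1:38920893-38920952 (Chst10, NM_145142) in mm9.

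**Figure D4:**
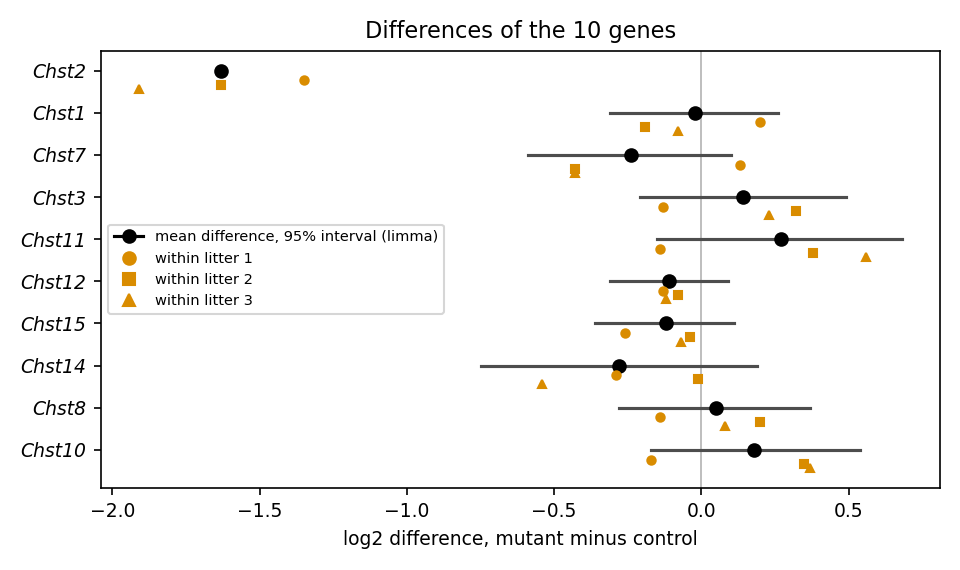
The x axis gives the log2 difference, mutant minus control. Black points are the group differences with 95% intervals from limma (none is drawn for Chst2, which was picked for its difference), and orange symbols are the differences within litters 1, 2 and 3. The intervals of all 9 other genes include 0. Litter 1 lies left of litters 2 and 3 for Chst3, Chst8, Chst10, Chst11, Chst12 and Chst15.

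Chst3, Chst8, Chst10 and Chst11 are set together here because of their order among the embryos, seen in their values, so that order is a description of these 4 of the 9 genes. Mutant 1 was the lowest of the 3 mutants and below its litter mate in each, while mutants 2 and 3 were above theirs. In Chst12, outside the 4, mutant 1 was also the lowest mutant, but there all 3 mutants lay below their litter mates. Within litter 1 the differences were -0.13, -0.14, -0.17 and -0.14 for these 4 genes, and within slide 2 they were 0.28, 0.14, 0.36 and 0.47. Mutant 1 was also the lowest of the mutants in the marker list of neurons and basal progenitors, whose median was 0.05, 0.48 and 0.55 in mutants 1 to 3 and 0.07, -0.01 and -0.05 in controls 1 to 3. It was the highest in the meningeal and mesenchymal list, whose summed signal over 10 of 10 markers ranged from 14.5 to 43.2 in mutants and from 20.0 to 29.8 in controls. The part of these cells in the 4 genes was not tested. Without mutant 1, Chst3, Chst10 and Chst11 had an unadjusted p under 0.05 and Chst8 did not (limma, adjusted p = 0.324). Because the 4 genes were grouped for the low place of mutant 1, leaving it out narrows their spread by construction. Nothing is read from these p-values. Chst7, outside the 4, had a difference of -0.37 at that setting (limma, unadjusted p = 0.0224), and 5 of the 10 sulfotransferases had an unadjusted p under 0.05. At that setting 4512 of 21091 rows had an unadjusted p under 0.05, and 0 of the 10 sulfotransferases passed after adjustment.

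The named genes whose level followed Chst2 most closely over the 6 embryos were Trabd2b, Mtap, Ostc, Atic, Gnl3 and Gid4, with Pearson correlations from 0.9967 to 0.9987 over 6 embryos and 17113 other named genes. The 6 points share 2 groups that differ in Chst2, so that any gene separating the groups scores high, and 324 genes had a correlation over 0.95. Trabd2b, a metalloprotease that inactivates Wnt proteins, was at -2.70, -2.71 and -2.92 in mutants 1 to 3 and at -1.92, -1.85 and -1.84 in controls 1 to 3. Mtap encodes an enzyme of methionine salvage, and had levels of 0.19, 0.15 and 0.13 in mutants 1 to 3 beside 0.48, 0.50 and 0.51 in controls 1 to 3. Atic, an enzyme of purine synthesis, and Gnl3, a nucleolar protein of proliferating cells, had differences of -0.68 and -0.69. The differences of Ostc, a subunit of the oligosaccharyltransferase, and Gid4, a subunit of a ubiquitin ligase, were -0.21 and -0.24. Of these 6 genes 0 passed in limma (adjusted p from 0.0548 to 0.213).

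Other genes of sulfated glycans were grouped in 9 lists holding 135 gene symbols, of which 113 were measured. In limma over all rows 0 of the 113 passed, against 0.0332% of all rows. At an unadjusted p under 0.05 there were 11 lower and 14 higher genes, together 22.1% of the 113, where the share over all rows was 16.9%. The groups did not overlap in 14 lower and 15 higher genes, together 25.7%, against 24.9% of all rows. Both counts of lower genes include Sult1e1, which met the background filter only through the controls. The median difference of the 113 genes was -0.02.

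Of the carbohydrate sulfotransferases outside the 10 genes, 5 of 9 were measured and 0 passed. Chst5, an N-acetylglucosamine sulfotransferase of the intestine and cornea, was at -4.17, -4.69 and -4.16 in mutants 1 to 3 and at -4.68, -4.90 and -5.43 in controls 1 to 3 (log2 difference 0.67, SE 0.24, limma, adjusted p = 0.265). Mutant 2 thus fell at the level of control 1. Gal3st2, a galactose sulfotransferase, had a difference of 0.60 (adjusted p = 0.25), and that of Gal3st3 was 0.31. Ust, which sulfates uronic acid in dermatan and chondroitin, had a difference of -0.19. The probes of Chst4 and Chst13 were well above background on none of the 6 arrays, that of Chst9 on 1 control array and that of Gal3st1 on 2 control arrays.

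Enzymes that sulfate heparan chains had a median difference of 0.02 (12 of 16 measured, 0 passed, 6 below and 6 above 0). Hs2st1, which sulfates uronic acid in heparan sulfate, was at -0.86, -0.79 and -0.53 in mutants 1 to 3 and at 0.09, -0.10 and 0.13 in controls 1 to 3. All mutants lay below all controls, but the difference of -0.77 (SE 0.12) did not pass (limma, adjusted p = 0.106). Hs6st2, which acts on glucosamine, was at 0.21, 0.36 and 0.54 in mutants 1 to 3 and at 0.83, 0.76 and 0.93 in controls 1 to 3. Its difference of -0.47 (SE 0.11) did not pass either (adjusted p = 0.165). The epimerase Glce had a difference of -0.27 (adjusted p = 0.226) and Hs3st1, a sulfotransferase best known for the anticoagulant site of heparan sulfate, of 0.35 (adjusted p = 0.157).

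Genes that supply sulfate and its donor had a median difference of -0.06 (10 of 11 listed symbols measured, 0 passed). The symbol without a row, Impad1, is a former name of Bpnt2. Slc26a1, a sulfate transporter, had a difference of 0.59 (adjusted p = 0.258), and Bpnt2, the Golgi phosphatase that clears the spent donor, of -0.13. The transporters Slc26a2 (sulfate) and Slc35b3 (PAPS) were at differences of -0.13 and -0.06. Genes of the glycosaminoglycan linker and chains had a median of -0.04 (17 of 19 measured, 0 passed). Among them Ext1, a heparan polymerase, had a difference of -0.35 (adjusted p = 0.211), Fam20b, the xylose kinase, of 0.40, and Csgalnact1, which starts chondroitin chains, of 0.40. Xylt2, the xylosyltransferase that begins the linker, had a difference of -0.18.

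Genes of keratan sulfate, HNK-1 and related glycan synthesis had a median difference of -0.12 (15 of 17 measured, 0 passed, 10 below and 5 above 0). The list also holds fucosyltransferases, so it is not a list of the acceptors of Chst2 alone. Fut9, a fucosyltransferase of the Lewis X epitope on neural progenitors, was at -1.19, -0.80 and -0.73 in mutants 1 to 3, against -0.23, -0.23 and 0.04 in controls 1 to 3. The groups did not overlap, and the difference of -0.77 (SE 0.15) did not pass (limma, adjusted p = 0.148). B4galt5, a galactosyltransferase, had a difference of -0.19 (adjusted p = 0.234), and B4galnt4, which makes the acceptor of Chst8, of -0.19 (adjusted p = 0.287). B3gat2, a glucuronyltransferase of the HNK-1 epitope, had a difference of 0.56 (adjusted p = 0.293).

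Core proteins of chondroitin and keratan sulfate proteoglycans, with other carriers of these sugars, had a median difference of 0.31, beside 0.02 over all rows (19 of 21 measured, 0 passed, 13 above and 6 below 0). Ptprz1, the receptor phosphatase whose ectodomain is phosphacan, was at 3.68, 3.95 and 3.84 in mutants 1 to 3 and at 3.17, 3.24 and 2.98 in controls 1 to 3 (log2 difference 0.69, SE 0.11, limma, adjusted p = 0.106). Cspg5, or neuroglycan C, was at -0.23, 0.13 and 0.21 in mutants 1 to 3 and at -0.50, -0.63 and -0.86 in controls 1 to 3 (0.70, SE 0.16, adjusted p = 0.162). The groups did not overlap in either gene. App, the amyloid precursor protein, had a difference of 0.35 (adjusted p = 0.153) and Podxl, a sialomucin, of -0.42 (adjusted p = 0.142). The neuronal marker list, given above, was also higher in mutants 2 and 3, and its part in these values was not tested.

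Core proteins of heparan sulfate proteoglycans had a median difference of -0.00 (15 of 15 measured, 0 passed). Sdc3, the syndecan of developing neurons, was at 0.25, 0.52 and 0.69 in mutants 1 to 3 and at 0.02, -0.06 and -0.19 in controls 1 to 3 (log2 difference 0.56, SE 0.13, limma, adjusted p = 0.176). The differences were 0.23 for Nrp1, a semaphorin and VEGF receptor, 0.18 for the glypican Gpc4 and -0.16 for the glypican Gpc6. Sulfatases had a median of -0.04 (13 of 14 measured, 0 passed). The lysosomal Sgsh had a difference of -0.62 (adjusted p = 0.23), while those of Arsi and Sumf1 were -0.31 and -0.11.

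Cytosolic and tyrosylprotein sulfotransferases had a median difference of 0.07 (7 of 13 measured, 0 passed). Sult1e1, the oestrogen sulfotransferase, was well above background on all 3 control arrays (-4.87, -4.96 and -5.04) and on no mutant array. It met the filter of at least 3 arrays only through the controls, so its p-value is not given. As a description, its signal was at least 3.68-fold lower in mutants. For this bound each mutant array contributed whichever was higher, its Sult1e1 signal or its dimmest spot still well above background, and the control mean was divided by their mean (means of log2 values). The differences of Sult2b1, Sult5a1 and Sult1a1 were 0.35, 0.20 and 0.52, and Sult1a1 was well above background on 2 arrays of each group.

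**Figure D5:**
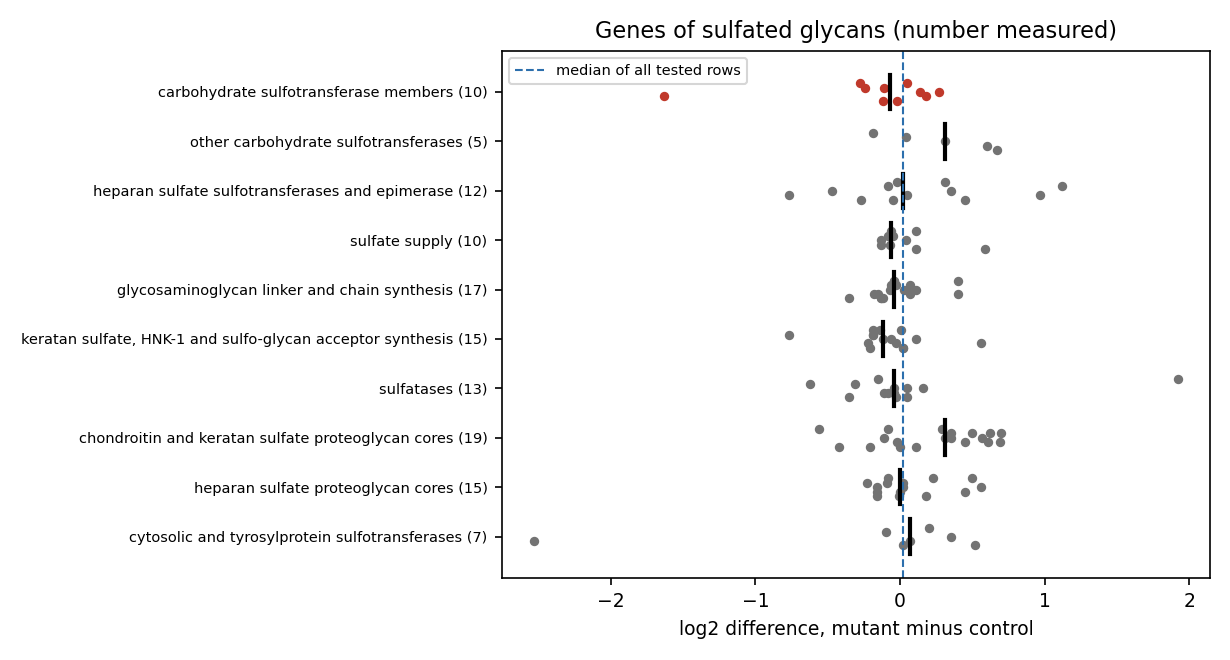
Each point is 1 measured gene, with its log2 difference, mutant minus control, on the x axis. The 10 members are in red and 9 further lists in grey, black bars are list medians and the dashed line is the median of all rows at 0.02. Chst2 lies at -1.63 apart from the other 9 members, and the list of chondroitin and keratan sulfate cores has its median at 0.31.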

How the data were processed

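RNA of 6 samples, each taken as 1 embryo, was hybridised to 1-colour Agilent arrays. The scanner files hold spot intensity, which the authors extracted with Feature Extraction 10.7.3.1 (array design 026655), per the file headers, which also give mm9 as the build. The intensities used are the software's processed signals, taken before any scaling across arrays. The authors' deposited table gives log2 values, a log2 ratio, a ratio and a p-value with fdr; the submitters' processing notes name limma without version or role. Its column numbers match the titles for only 1 of 6 arrays, so columns were used by group.

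From 43020 spots, those marked as outliers were dropped, replicate spots of each probe averaged, and log2 signals scaled to each array's 75th percentile. Probes well above background on at least 3 arrays were kept, and the brightest per gene used (21091 rows). Probes were named by RefSeq accession (26575), else by the authors' symbol, and 9728 stayed unnamed. Groups were compared with limma 3.58.1 (R 4.3.3), Benjamini-Hochberg adjustment, threshold 0.05, two-sided, tested on simulated data. Python 3.11.15 and matplotlib 3.10.9 were used.

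Named genes are the members, per list up to 4 of smallest p, and the 6 most correlated with Chst2. Members and lists were chosen with earlier results of these data known. Litters pair the samples, since the labels name them. The main fit had no litter or slide term, so its SEs, intervals and p-values do not use the pairing. Litter and slide were blocks in alternatives only. Deviations of litter mates from their group means had r = 0.308, 0.357 and 0.107 for litters 1, 2 and 3. Pairs from different litters had r from -0.41 to 0.108, so litter 3 did not stand out, and litter 1 was alone on slide 1. The sample titles number each sample by litter and group, and each was taken as a separate animal. Chst2 was in the fit, but its test is not used as evidence, since it was picked for its difference.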

Additional observations from a re-analysis of the deposited data

How the results depend on the processing

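The count of genes passing in limma was 7, and 153 with normexp background correction (81 higher and 72 lower), 15 with quantile normalization, 23 with median centring, 26 with probes well above background on all 6 arrays, 143 with trend and robust variance, 22 with the authors' log2 values and 79 at an adjusted p under 0.1. It was 2 with probes averaged per gene, and 0 with no filter on dim probes, with litter as a block (the pairing by replicate) and with slide as a block, where 7916, 4185 and 4148 rows had an unadjusted p under 0.05. Leaving out each embryo gave 0 to 1. The count of the 10 sulfotransferases was 1 (Chst2), and 0 with no filter, the mean of probes, litter as a block and slide as a block, with 1 at an unadjusted p under 0.05 in each, and 0 to 0 with each embryo left out. The Chst2 difference kept its sign in all 17 alternatives (-1.79 to -1.53). These reuse the arrays in which Chst2 was picked for its fall, so nothing is read from the kept sign. Of 153 values of the other 9 genes, 0 passed in limma and 4 changed sign: Chst1 was 0.04 without mutant 3 and 0.07 without control 2, and Chst8 was -0.04 with median centring and -0.05 without mutant 2 (ranges with each embryo left out -0.08 to 0.07 and -0.05 to 0.18). The cause of these changes was not tested, except that fewer embryos or added block terms leave fewer degrees of freedom. Normexp used the median spot signal and an added offset of 50. The probe-level normexp values were added after seeing the data. Signal over background limits the dimmer Chst2 probe.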

Other observations

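Some genes of the sulfated glycan lists followed individual embryos or litters more than the groups. Sulf1, an extracellular sulfatase that trims heparan sulfate, was at -0.23, -0.22 and -3.80 in mutants 1 to 3, against -2.77, -3.28 and -3.97 in controls 1 to 3 (log2 difference 1.92, SE 1.03, limma, adjusted p = 0.401). Rspo2, a secreted Wnt enhancer of the cortical hem list, was well above background on 4 of 6 arrays and was at 0.21, -0.13 and -6.88 in mutants 1 to 3 and at -7.59, -7.62 and -5.33 in controls 1 to 3. Sulf2, the related sulfatase, was at 1.48, 0.71 and -0.10 in mutants 1 to 3 and at 1.07, 1.09 and 0.99 in controls 1 to 3. Slc13a4, a sulfate transporter, was ordered by litter in both groups, with -4.75, -5.96 and -6.73 in mutants 1 to 3 and -4.95, -6.04 and -6.80 in controls 1 to 3. Papss2, a PAPS synthetase, followed the same order with -2.57, -3.47 and -3.79 in mutants 1 to 3 and -2.90, -3.23 and -3.45 in controls 1 to 3. These genes were chosen after their values were seen, except Sulf1.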
